A study of Mus musculus with 6 samples.

Results

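The expression of 32 genes of peroxisome assembly and peroxisomal oxidation was examined in regenerating mouse liver, out of 16858 genes in the table of counts. The genes were chosen by name and comprised 12 Pex assembly factors, 2 Abcd transporters, 2 other membrane proteins and 16 enzymes. RNA came from livers at 72 h after 70% partial hepatectomy (PHx), with 3 libraries from Aqp5+/+ (wild type, C57BL/6) mice and 3 from Aqp5-/- mice. The Aqp5-/- mice were made with CRISPR/Cas9 in fertilized eggs, so that the gene was targeted in every cell type, and both genotypes had the same surgery with no further agent named for these livers. The study's methods give 3-month-old males for PHx. Neither they nor the labels say that each library was a different mouse, so that the p-values refer to the variation between libraries, which may be technical. Of the 32 genes, 31 had enough counts to be tested, as did 12353 genes in all, and Pex16 did not.

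Peroxisomes are membrane-bound organelles in which very long-chain, branched-chain and dicarboxylic acyl chains are shortened by β-oxidation, with hydrogen peroxide as a by-product of the oxidase step. They also hold the α-oxidation of phytanic acid, the last steps of bile acid side-chain shortening and the first steps of ether lipid synthesis, and hepatocytes are among the cells richest in them. Pex proteins insert membrane proteins, carry enzymes into the matrix and divide the organelle, while ABC transporters of the D family bring acyl-CoA across its membrane.

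Library totals were between 7130831 and 15550006 counts, and levels are counts over the TMM-scaled size of the library (CPM). Liver identity was checked with 13 hepatocyte markers, which summed to 79232 to 140579 CPM in Aqp5+/+ libraries, against 121805 to 131475 CPM in Aqp5-/- libraries. The Y-linked transcripts Ddx3y, Eif2s3y, Uty and Kdm5d summed to 287 to 471 CPM in Aqp5+/+ and 0.869 to 1.19 CPM in Aqp5-/- libraries, with Kdm5d at 0 counts in all Aqp5-/- libraries. The Aqp5-/- libraries therefore went against the stated sex, and loss of Aqp5 and the difference in Y-linked transcripts cannot be told apart in any comparison here. Aqp5 itself was not analysed here.

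In Aqp5-/- livers the transporter Abcd2 was the only one of the 31 tested genes to pass the test in either direction, and it rose 4.7-fold. Called here means an adjusted p under 0.05 in the quasi-likelihood test of edgeR, with Benjamini-Hochberg adjustment over all tested genes, and fold changes are Aqp5-/- against Aqp5+/+. The 1 gene called higher compares with 0.154% of all tested genes called higher (0.332% in either direction), and 0 members were called lower against 0.178% of all tested genes. At an unadjusted p under 0.05, the same test gave 1 member higher (Abcd2) and 5 lower (Scp2, Acaa1a, Acox3, Crot and Pex10), where 4.30% of all tested genes were higher and 4.48% lower. Abcd2 was also called higher by DESeq2, edgeR's exact test and limma, which called 0.923%, 0.882% and 0.146% of the tested genes higher, in this order. Scp2 was the 1 member called lower by DESeq2 and by the exact test, and limma called 0 lower, where these tools called 1.02%, 0.915% and 0.219% of the tested genes lower. The genotypes did not overlap for Abcd2, which was higher in Aqp5-/- livers, and for 6 members that were lower (Scp2, Acaa1a, Acaa1b, Acox3, Phyh and Pex10). Over all tested genes, 6.93% were higher and 7.80% lower without overlap. Of the 31 fold changes, 24 were below 0, and their median was -0.22 on the log2 scale, where 49.0% of all tested genes were below 0 and the median was 0.01. Of the 13 hepatocyte markers, 10 were also below 0, with a median of -0.09. With library totals in place of TMM, 18 of the 31 were below 0 with a median of -0.05, while the median of all tested genes was 0.17. In bulk liver RNA, fewer cells of a type and less RNA per cell cannot be told apart.

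**Figure D1:**
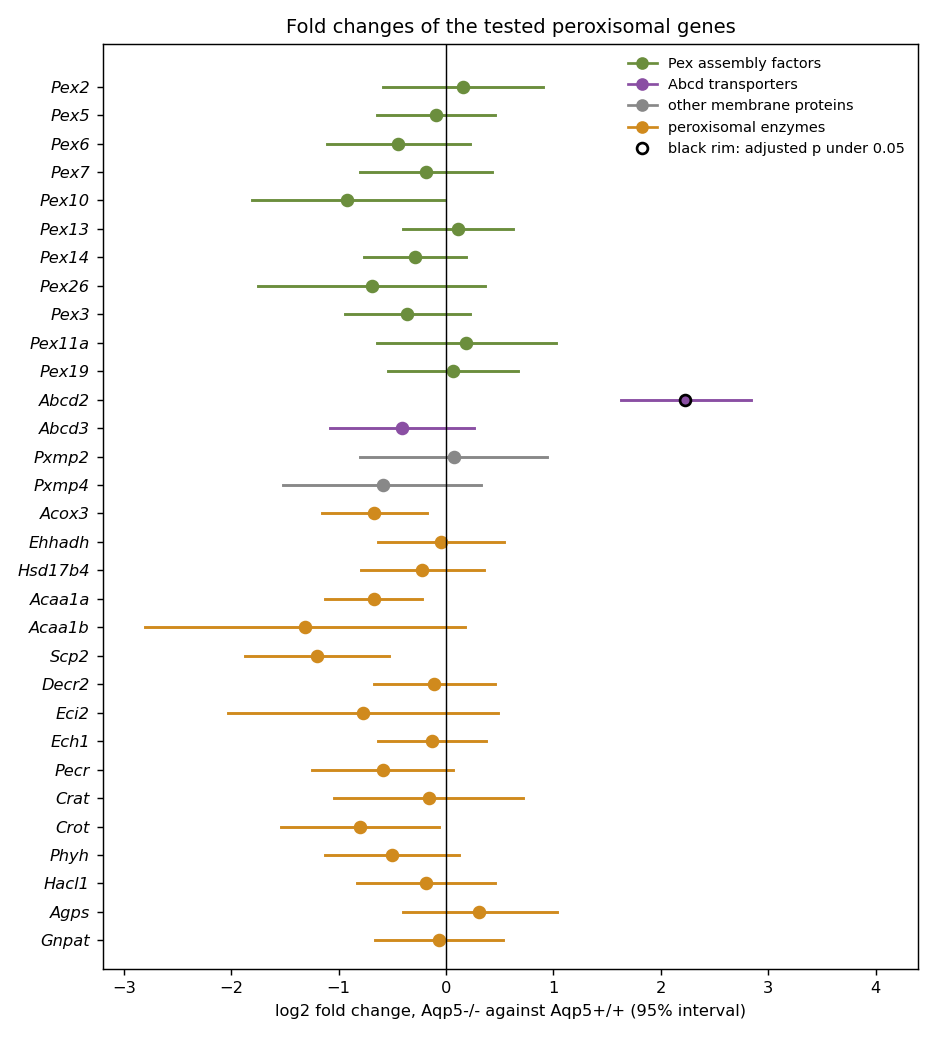
Log2 fold change of the 31 tested peroxisomal genes (horizontal axis, Aqp5-/- against Aqp5+/+), colored by role, with a black rim at an adjusted p under 0.05. Lines are 95% intervals calculated from the fitted means and dispersions of edgeR's quasi-likelihood fit. Abcd2 stands alone at 2.23, and the fold changes of 15 of the 16 enzymes are below 0 (49.0% of all tested genes). Those of the Pex assembly factors lie between -0.92 and 0.19.

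Abcd2 encodes an ABC transporter of the peroxisomal membrane that takes very long-chain and polyunsaturated acyl-CoA into the organelle. Its levels were 19.4, 11.3 and 16.0 CPM in Aqp5+/+ livers, against 84.9, 78.5 and 57.3 CPM in Aqp5-/- livers, each in the order of replicates 1, 2 and 3. Every Aqp5-/- library lay far above the highest Aqp5+/+ library, and the lowest of them was replicate 3. These levels rest on 75 to 232 counts per Aqp5+/+ library and 903 to 1046 counts per Aqp5-/- library. The log2 fold change was 2.23 (SE 0.27, 95% interval 1.63 to 2.84), with an adjusted p = 0.025 from edgeR, and the gene ranked 14 of all 12353 by its p. The call was lost, with a log2 fold change between 2.11 and 2.42, without Aqp5+/+ replicate 1 (adjusted p = 0.14), Aqp5+/+ replicate 3 (0.10), Aqp5-/- replicate 1 (0.074) or Aqp5-/- replicate 2 (0.094). It was kept without Aqp5+/+ replicate 2 (adjusted p = 0.043) and without Aqp5-/- replicate 3 (0.012). Abcd2 lies on chromosome 15 of GRCm38, from 91145871 to 91191799.

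Abcd3, the 70-kDa membrane protein of peroxisomes, transports branched-chain, dicarboxylic and bile acid precursor acyl-CoA and is the more abundant of the pair in liver. It was at 492, 489 and 576 CPM in Aqp5+/+ livers, against 527, 353 and 292 CPM in Aqp5-/- livers. Aqp5-/- replicate 1 lay within the wild-type range and replicates 2 and 3 below it. Its log2 fold change was -0.41 (SE 0.30, adjusted p = 0.70 by edgeR), with a 95% interval from -1.08 to 0.26. Set against Abcd3 in the same library, the counts of Abcd2 were 3.95, 2.30 and 2.77% of those of Abcd3 in Aqp5+/+ livers and 16.1, 22.3 and 19.6% in Aqp5-/- livers. The mean log2 ratio of these transporters was -5.09 ± 0.40 (SD, n = 3) for Aqp5+/+, against -2.38 ± 0.23 (SD, n = 3) for Aqp5-/-. The difference of 2.71 had p = 0.10 in a 2-sided exact permutation test, the smallest p that 3 against 3 libraries allow. Per kb of exons, Abcd2 was at 2.62 CPM per kb and Abcd3 at 78.7 CPM per kb in Aqp5+/+ livers, and at 12.4 and 59.2 CPM per kb in Aqp5-/- livers. Abcd2 thus ranked 31 of the 32 genes by its level per kb in wild-type livers, above Pex16 alone.

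**Figure D2:**
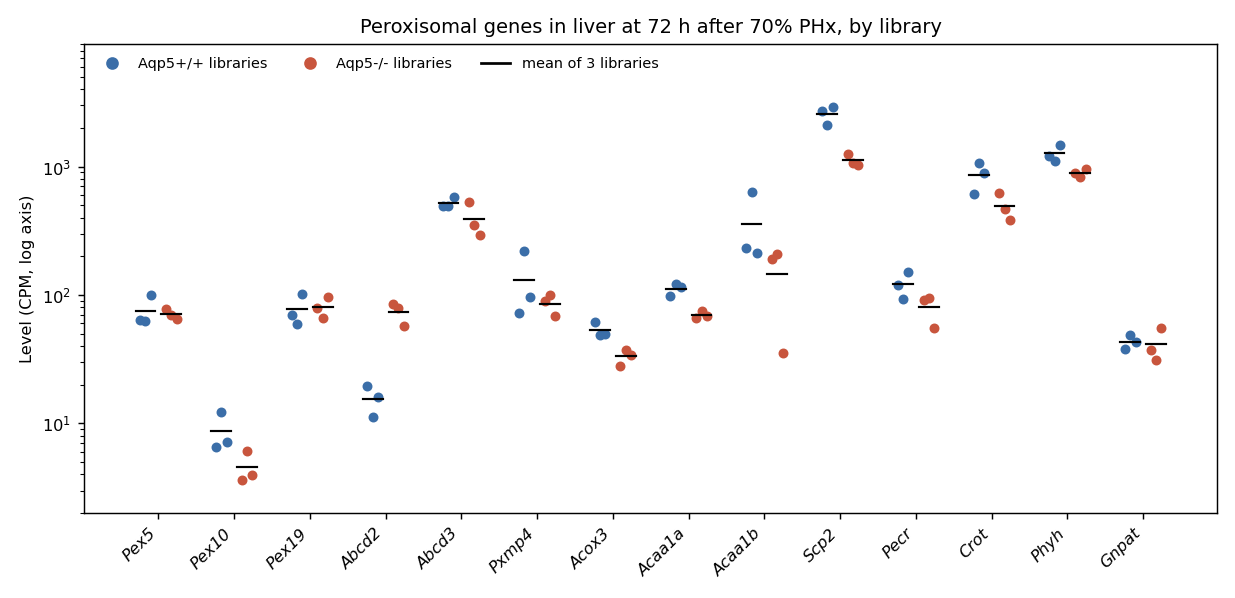
Levels (CPM, log axis) of the 14 members given in full, with 1 point per library (blue, Aqp5+/+, and red, Aqp5-/-, replicates 1 to 3 from left to right) and a black line at the mean of 3 libraries. Abcd2 is higher in all Aqp5-/- libraries, Scp2, Phyh, Acaa1a, Acaa1b, Acox3 and Pex10 are lower in all of them, and the remaining genes overlap.

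The 2 other membrane proteins overlapped between genotypes. Pxmp4, an integral protein of the peroxisomal membrane, was at 71.7, 221 and 96.4 CPM in Aqp5+/+ livers, against 89.0, 100 and 68.0 CPM in Aqp5-/- livers. Aqp5+/+ replicate 2 alone stood high, and the log2 fold change of -0.59 (adjusted p = 0.69 by edgeR) went to 0.02 without it. Pxmp2, a channel-forming protein of the mouse peroxisomal membrane, ranged from 18.6 to 58.2 CPM in Aqp5+/+ and from 31.9 to 45.4 CPM in Aqp5-/- livers, with a log2 fold change of 0.07 (adjusted p = 0.96).

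Among the Pex assembly factors, the genotypes overlapped for all those tested except Pex10, which was lower (7.80% of all tested genes were lower without overlap). None of the 11 tested was called by edgeR (0.332% of all tested genes in either direction), DESeq2 or the exact test. DESeq2 called 0.923% of all tested genes higher and 1.02% lower, and the exact test 0.882% and 0.915%. At an unadjusted p under 0.05 by edgeR, 1 (Pex10) was lower (4.48% of all tested genes). Of the 11, 7 were below 0 (49.0% of all tested genes), and the median log2 fold change was -0.19. Without Aqp5+/+ replicate 3 this median was 0.03, and with library totals it was -0.02, with 6 of the 11 below 0. The summed level of the 12 factors was 435, 457 and 560 CPM in Aqp5+/+ livers, against 472, 435 and 419 CPM in Aqp5-/- livers, and these ranges overlapped.

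Among the 8 factors of matrix protein import, Pex5 is the receptor for enzymes with the type 1 targeting signal at their end, and Pex7 is the receptor for the type 2 signal. Pex5 was at 64.0, 62.5 and 99.5 CPM in Aqp5+/+ livers, against 77.1, 70.1 and 65.5 CPM in Aqp5-/- livers, so that all Aqp5-/- values fell within the wild-type range. Its log2 fold change was -0.09 (95% interval -0.64 to 0.46), and it was 0.08 with library totals in place of TMM and 0.16 without Aqp5+/+ replicate 3. Pex7 was at 33.9 ± 10.9 CPM (SD, n = 3) in Aqp5+/+ livers, against 29.9 ± 4.38 CPM (SD, n = 3) in Aqp5-/- livers. The docking proteins Pex13 and Pex14 had log2 fold changes of 0.11 and -0.29, with adjusted p = 0.89 and 0.71 by edgeR. On the opposite strand of Pex14, the predicted gene Gm17029 covers 28.3% of its exonic bases, and the strand setting used for counting is not given in the sources used here.

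Pex10, a RING finger ubiquitin ligase that acts with Pex2 on the import receptor, was at 6.54, 12.3 and 7.16 CPM in Aqp5+/+ livers, against 3.65, 6.08 and 3.99 CPM in Aqp5-/- livers. The highest Aqp5-/- library lay just below the lowest Aqp5+/+ library, on 45 to 88 counts per library. On the log2 scale the fold change was -0.92 (SE 0.39, unadjusted p = 0.047, adjusted p = 0.56 by edgeR), and between -1.18 and -0.59 with 1 library left out. For Pex10 it was -0.49 without Aqp5+/+ replicate 2 and Aqp5-/- replicate 3, an alternative chosen after seeing the data. Its partner Pex2 had a log2 fold change of 0.16 (adjusted p = 0.89), with 18.5 to 42.3 CPM in Aqp5+/+ livers, against 24.9 to 37.6 CPM in Aqp5-/- livers. The AAA ATPase Pex6, which pulls used receptors out of the membrane, and its anchor Pex26 were at -0.45 and -0.69, with adjusted p = 0.67 and 0.68. Pex26 varied 3.09-fold among Aqp5+/+ and 2.63-fold among Aqp5-/- libraries.

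Of the 4 factors of membrane assembly and division, Pex19, the soluble chaperone of membrane proteins, had the highest level per kb. It was at 70.2, 59.3 and 102 CPM in Aqp5+/+ livers, against 78.9, 66.1 and 97.1 CPM in Aqp5-/- livers, which overlapped throughout. Its log2 fold change was 0.06 (95% interval -0.54 to 0.67), and it was -0.10 without Aqp5+/+ replicate 2. Pex3, the membrane anchor of Pex19, was at 31.8 ± 3.93 CPM (SD, n = 3) in Aqp5+/+ livers, against 24.8 ± 6.86 CPM (SD, n = 3) in Aqp5-/- livers, with a log2 fold change of -0.36 (adjusted p = 0.70). Pex11a, which elongates the membrane before division, was at 0.19 (adjusted p = 0.88) and varied 2.78-fold among Aqp5+/+ libraries, where replicate 2 held 53.3 CPM against 19.2 and 24.7 CPM in replicates 1 and 3. Pex16, which helps to place Pex3 in the membrane, had 3, 1 and 3 counts in the Aqp5+/+ and 3, 18 and 10 counts in the Aqp5-/- libraries, and these counts were too low for a test.

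Of the 16 enzymes 15 had a log2 fold change below 0 (49.0% of all tested genes), with Agps the exception. The median was -0.36, although none passed edgeR's quasi-likelihood test (0.332% of all tested genes in either direction). By DESeq2 and by edgeR's exact test, 1 of them, Scp2, was called lower (1.02% and 0.915% of all tested genes, in this order). At an unadjusted p under 0.05, 4 were lower (4.48% of all tested genes) and 0 higher (4.30%) by edgeR, and 5 were lower without overlap of the genotypes (7.80% of all tested genes). The summed level of the 16 enzymes was 6093, 6369 and 7110 CPM in Aqp5+/+ livers, against 4299, 3825 and 3571 CPM in Aqp5-/- livers, and it was 3404, 4247 and 4216 against 3037, 2769 and 2540 CPM when Scp2 was left out. With and without Scp2, every Aqp5-/- library lay below every Aqp5+/+ library. The median lay between -0.53 (without Aqp5+/+ replicate 1) and -0.26 (without Aqp5+/+ replicate 2) when 1 library was left out. It was -0.23 without Aqp5+/+ replicate 2 and Aqp5-/- replicate 3 together, and -0.19 with library totals in place of TMM. Library totals moved the median of all tested genes from 0.01 to 0.17, and then 10 of the 16 enzymes and 4340 of the 12353 tested genes were below 0.

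**Figure D3:**
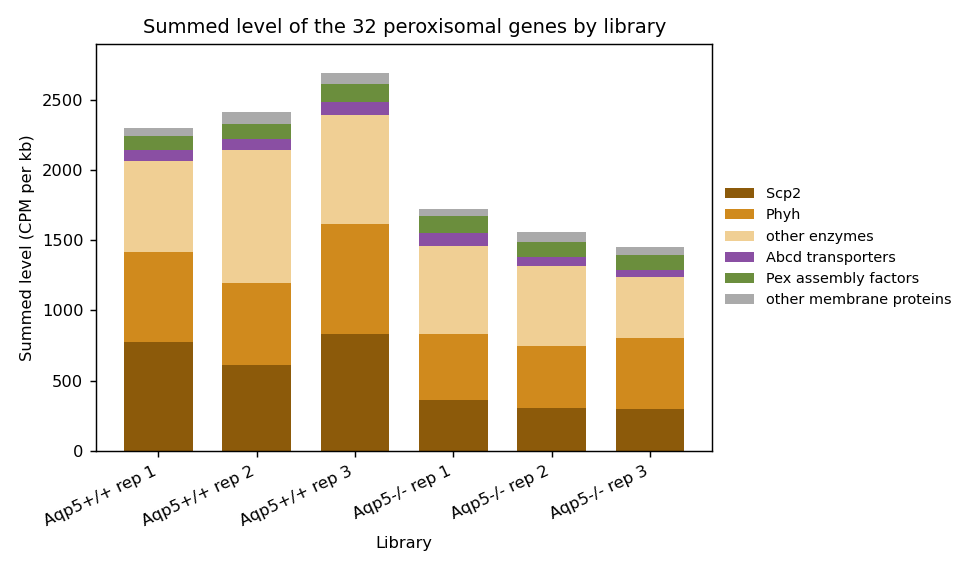
Summed level of the 32 genes in each library (CPM per kb of exons), divided into Scp2, Phyh, the other enzymes and the 3 groups of membrane and assembly genes. The sums of all members are between 2299 and 2697 CPM per kb in Aqp5+/+ libraries and between 1455 and 1726 CPM per kb in Aqp5-/- libraries, and the bands of the enzymes make up most of the gap.

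The 6 core enzymes of β-oxidation were all below 0 (49.0% of all tested genes), with a median of -0.67. Of these, 4 were lower without overlap of the genotypes (7.80% of all tested genes). With library totals in place of TMM, 5 of the 6 were below 0, with a median of -0.52. Relative to the mean of the Aqp5+/+ libraries, their median log2 level was -0.74, -0.53 and -0.66 in the Aqp5-/- libraries, whereas the median of the Pex assembly factors was 0.04, -0.11 and -0.17. The corresponding medians in the Aqp5+/+ libraries were -0.01, -0.01 and -0.03 for the core enzymes and -0.14, -0.21 and 0.22 for the Pex assembly factors. When 1 library was left out, the median fold change of the core enzymes lay between -0.75 and -0.60. Without Aqp5+/+ replicate 2 and Aqp5-/- replicate 3 together, an alternative chosen after seeing the data, this median was -0.44.

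Scp2 encodes, from one locus, a thiolase that completes the β-oxidation of branched chains and bile acid precursors and the lipid-binding sterol carrier protein. It was the most abundant member per kb in Aqp5+/+ livers, at 739 ± 115 CPM per kb (SD, n = 3). Its levels were 2689, 2122 and 2894 CPM in Aqp5+/+ livers, against 1262, 1056 and 1030 CPM in Aqp5-/- livers. The gap between the genotypes was wider than the spread within either of them. The log2 fold change was -1.20 (SE 0.29, 95% interval -1.87 to -0.53) with p = 0.0033 and an adjusted p = 0.26 by edgeR's quasi-likelihood test, against adjusted p = 0.00014 by DESeq2 and 0.037 by edgeR's exact test. When 1 library was left out, the log2 fold change stayed between -1.33 and -1.11. Scp2 held 33.6, 25.3 and 30.9% of the summed member level per kb of Aqp5+/+ libraries, against 21.0, 19.5 and 20.4% for Aqp5-/-. Of its 100-base windows, 21.8% also occur in the pseudogene Scp2-ps2 or the predicted gene Gm47162, so that part of its reads could be counted elsewhere.

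Acaa1a and Acaa1b are neighbouring ketoacyl-CoA thiolases of chromosome 9, which split the shortened straight chain. Acaa1a was at 98.5, 122 and 115 CPM in Aqp5+/+ livers, against 66.1, 75.4 and 68.9 CPM in Aqp5-/- livers, 2 tight and separate groups. Its log2 fold change was -0.67 (SE 0.20, unadjusted p = 0.0091, adjusted p = 0.38 by edgeR), and between -0.76 and -0.61 with 1 library left out. Acaa1b was at 232, 630 and 213 CPM in Aqp5+/+ livers, against 190, 209 and 35.2 CPM in Aqp5-/- livers. Aqp5+/+ replicate 2 stood high and Aqp5-/- replicate 3 low, and the nearest pair of libraries, at 213 and 209 CPM, almost met. The log2 fold change of Acaa1b was -1.31 (SE 0.65, adjusted p = 0.59 by edgeR), and between -1.68 and -0.62 with 1 library left out. It was -0.16 without Aqp5+/+ replicate 2 and Aqp5-/- replicate 3, which held the extremes of this gene, so that the gap had to shrink. Acaa1b had 236, 516 and 185% of the counts of Acaa1a in Aqp5+/+ and 287, 278 and 51.1% in Aqp5-/- libraries, and the difference of the mean log2 ratios, -0.82, had p = 0.60 in a 2-sided exact permutation test. The 2 genes share sequence with each other or with an overlapping gene over 9.72% (Acaa1a) and 26.0% (Acaa1b) of their 100-base windows, which makes the division of reads between them uncertain.

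The sequences of 3 promoters are shown because Scp2 and Acaa1a had the smallest p among the core enzymes, and because Acaa1a can be compared with its neighbour Acaa1b. Each runs 5′ to 3′ from 250 bases before to 50 bases after the start in RefSeq (GRCm38.p6), with the nuclear receptor motif AGGTCA and the GC box GGGCGG, on either strand, in capitals. The positions are chr4:108118498-108118797 (minus strand) for Scp2, chr9:119341044-119341343 (plus strand) for Acaa1a and chr9:119157044-119157343 (minus strand) for Acaa1b. The windows of Scp2 and Acaa1a lie within the spans of these genes in GENCODE.
Scp2: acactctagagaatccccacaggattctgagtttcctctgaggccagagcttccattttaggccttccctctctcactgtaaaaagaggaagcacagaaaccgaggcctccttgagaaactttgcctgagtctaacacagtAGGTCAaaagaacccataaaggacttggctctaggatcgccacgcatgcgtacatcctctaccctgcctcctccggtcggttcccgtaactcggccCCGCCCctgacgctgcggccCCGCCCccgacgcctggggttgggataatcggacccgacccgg
Acaa1a: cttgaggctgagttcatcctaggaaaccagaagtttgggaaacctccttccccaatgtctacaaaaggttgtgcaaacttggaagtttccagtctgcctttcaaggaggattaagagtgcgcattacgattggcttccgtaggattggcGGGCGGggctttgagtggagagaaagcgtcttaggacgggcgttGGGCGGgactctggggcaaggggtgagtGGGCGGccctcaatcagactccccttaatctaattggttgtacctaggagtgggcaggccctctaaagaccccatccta
Acaa1b: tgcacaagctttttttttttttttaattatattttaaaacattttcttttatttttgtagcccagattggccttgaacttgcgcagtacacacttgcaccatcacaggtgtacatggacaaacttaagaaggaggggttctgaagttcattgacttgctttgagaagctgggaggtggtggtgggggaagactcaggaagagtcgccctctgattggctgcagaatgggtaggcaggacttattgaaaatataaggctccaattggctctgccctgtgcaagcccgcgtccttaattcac
The Scp2 promoter held 1 nuclear receptor motif, which begins 109 bases before the start, and 2 GC boxes. The Acaa1a promoter held 3 GC boxes, and neither motif was found in the window of Acaa1b. Promoters were given for 26 of the 32 genes, 30 promoters in all. The nuclear receptor motif was in 2 of the 30, those of Phyh and Scp2, and in 16.3% of all 32851 promoters. The GC box was in 22 of the 30, from 21 genes, and in 35.7% of all promoters. The direct repeat of AGGTCA with 1 base between, the form bound by PPARα with RXR, was in none of the members' promoters and in 0.0396% of all promoters, and with AGGNCA in both places it was in none and in 0.381%. A match is a description of the letters and not a bound site, and the repeat can lie outside these windows.

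Acox3, an oxidase of branched-chain acyl-CoA, was at 61.2, 48.7 and 49.3 CPM in Aqp5+/+ livers, against 28.2, 37.4 and 34.3 CPM in Aqp5-/- livers. The groups were apart, with the lowest Aqp5-/- value in replicate 1. Acox3 had a log2 fold change of -0.67 (SE 0.21, unadjusted p = 0.013, adjusted p = 0.42 by edgeR). The bifunctional enzymes, which hydrate and dehydrogenate the chain between the oxidase and the thiolase, differed less. Ehhadh, the L-bifunctional enzyme, ranged from 138 to 194 CPM in Aqp5+/+ livers, against 130 to 200 CPM in Aqp5-/- livers, with a log2 fold change of -0.05 (95% interval -0.63 to 0.54). Hsd17b4, the D-bifunctional enzyme, was at 371 ± 65.7 CPM in Aqp5+/+ livers, against 320 ± 30.2 CPM in Aqp5-/- livers (SD, n = 3 each), with a log2 fold change of -0.22 (95% interval -0.79 to 0.35).

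The 4 auxiliary enzymes, which handle double bonds, were all below 0 (49.0% of all tested genes) with a median of -0.36. None had an unadjusted p under 0.05 by edgeR (4.30% of all tested genes higher and 4.48% lower). Pecr, an enoyl-CoA reductase and the most abundant of them per kb, was at 119, 92.7 and 152 CPM in Aqp5+/+ livers, against 91.6, 94.8 and 55.1 CPM in Aqp5-/- livers. Aqp5+/+ replicate 2 lay among the Aqp5-/- libraries, and the log2 fold change was -0.59 (SE 0.29, adjusted p = 0.59 by edgeR). The dienoyl-CoA reductase Decr2 and the dienoyl-CoA isomerase Ech1 were at -0.11 and -0.13, with adjusted p = 0.90 and 0.86. The enoyl-CoA isomerase Eci2 was at -0.77 (adjusted p = 0.70), and Aqp5+/+ replicate 2 held 52.1 CPM against 15.7 and 18.4 CPM in the other Aqp5+/+ libraries. With 1 library left out its log2 fold change lay between -1.10 and -0.03.

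Crot, the carnitine octanoyltransferase that prepares shortened chains for export to mitochondria, was at 612, 1074 and 886 CPM in Aqp5+/+ livers, against 619, 469 and 386 CPM in Aqp5-/- livers. The highest Aqp5-/- library, replicate 1, met the lowest Aqp5+/+ library, also replicate 1. For Crot the log2 fold change was -0.80 (SE 0.32, unadjusted p = 0.037, adjusted p = 0.53 by edgeR), and between -1.01 and -0.61 with 1 library left out. It was -0.46 without Aqp5+/+ replicate 2 and Aqp5-/- replicate 3, which held the extremes of Crot, so that the gap had to shrink. Crat, the carnitine acetyltransferase of peroxisomes and mitochondria, was at -0.16 (adjusted p = 0.90) and varied 3.08-fold among the Aqp5+/+ libraries.

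In α-oxidation, Phyh hydroxylates phytanoyl-CoA and Hacl1 then cleaves off its first carbon. Phyh, the next most abundant member per kb after Scp2 in Aqp5+/+ livers (669 ± 103 CPM per kb, SD, n = 3), was at 1214, 1103 and 1483 CPM in Aqp5+/+ livers, against 892, 835 and 955 CPM in Aqp5-/- livers. The highest Aqp5-/- value, in replicate 3, stood under the lowest Aqp5+/+ value, in replicate 2. Its log2 fold change was -0.50 (SE 0.28, 95% interval -1.13 to 0.12), with an adjusted p = 0.62 by edgeR. Hacl1 was at -0.19 (adjusted p = 0.84), and 24.1% of its 100-base windows are shared with the predicted gene Gm49387 or with Btd.

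The 2 enzymes of ether lipid synthesis overlapped between genotypes. Gnpat, which acylates dihydroxyacetone phosphate, was at 37.8, 48.7 and 43.3 CPM in Aqp5+/+ livers, against 37.1, 31.2 and 55.5 CPM in Aqp5-/- livers. The Aqp5-/- libraries lay on both sides of the Aqp5+/+ libraries, and the log2 fold change was -0.07 (95% interval -0.66 to 0.53) with TMM and 0.10 with library totals. Agps, which exchanges the acyl chain for an alkyl chain, was the 1 enzyme above 0, at 0.31 (adjusted p = 0.77), with 29.3 to 40.5 CPM in Aqp5+/+ livers, against 28.9 to 62.2 CPM in Aqp5-/- livers.

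**Figure D4:**
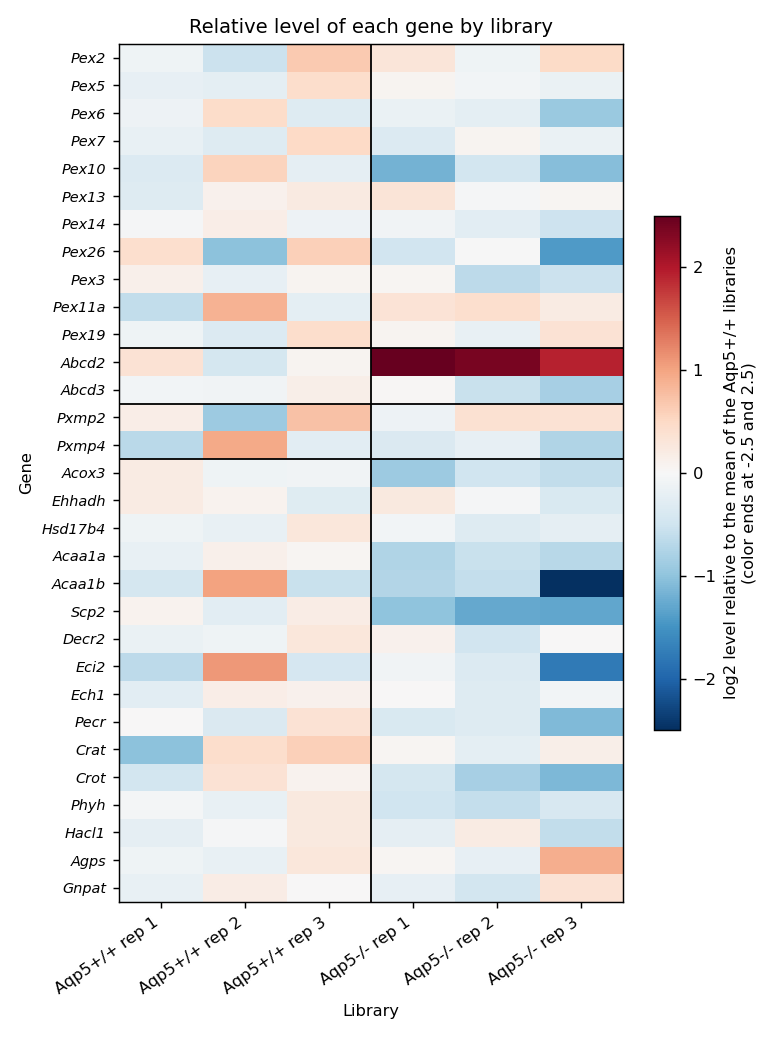
Log2 level of each tested member (rows, ordered by role) in each library (columns), relative to the mean of the Aqp5+/+ libraries, with blue for lower and red for higher. Abcd2 is red in all Aqp5-/- libraries, and Scp2, Acaa1a and Acox3 are blue in all of them. Acaa1b, Eci2, Pxmp4 and Pex11a are the reddest of the tested members in Aqp5+/+ replicate 2.

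The members also varied among libraries of one genotype. Aqp5+/+ replicate 3 was the highest of the 6 libraries for 14 of the 31 tested members, where it was highest for 15% of all tested genes, and it was the lowest for 0 members. Aqp5+/+ replicate 2 was highest for 10 members, among them Acaa1b, Eci2, Pxmp4, Pex11a and Crot, where it was highest for 27.9% of all tested genes. Aqp5-/- replicate 3 was lowest for 12 members, among them Scp2, Acaa1b, Eci2, Pecr and Crot, where it was lowest for 23.7% of all tested genes. The same library had the highest sums of markers for macrophages (1836 CPM), neutrophils (121 CPM), stellate cells (2523 CPM) and cholangiocytes (425 CPM) and the lowest for pericentral hepatocytes (2818 CPM). Aqp5+/+ replicate 2 had the smallest total count and the lowest sum of 12 proliferation genes, at 82.6 CPM, where the other libraries had 305 to 493 CPM. The part of these differences in the levels of the members was not tested.

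A wider list of 70 other peroxisomal genes, of which 64 were in the table and 57 were tested, had a median log2 fold change of -0.13. By edgeR 0 of the 57 were called, with 3 higher and 9 lower at an unadjusted p under 0.05, where 4.30% of all tested genes were higher and 4.48% lower. DESeq2 called 2 of them higher and 3 lower (0.923% and 1.02% of all tested genes), the exact test 2 higher and 1 lower (0.882% and 0.915%), and limma 0 higher and 1 lower (0.146% and 0.219%). Without overlap of the genotypes, 5 were higher and 12 lower, where 6.93% and 7.80% of all tested genes were. The 6 with the smallest p were Nudt7, Acot3, Acnat2, Slc25a17, Ephx2 and Acsl1, and their values are given as a description, since they were chosen by that p. Nudt7, which hydrolyses coenzyme A and acyl-CoA, was at 858, 357 and 529 CPM in Aqp5+/+ livers, against 118, 78.1 and 35.8 CPM in Aqp5-/- livers, with a fitted log2 difference of -2.91 (adjusted p = 0.082 by edgeR). Acot3, an acyl-CoA thioesterase, was at 1.17, 2.55 and 8.22 CPM in Aqp5+/+ livers, against 33.2, 40.3 and 12.7 CPM in Aqp5-/- livers, with a fitted log2 difference of 2.82 (adjusted p = 0.26). These 2 genes are also in the lists of male-biased and female-biased liver genes, in this order. Acnat2, an acyltransferase that joins acyl chains to amino acids, was at 1.75 and the cofactor carrier Slc25a17 at -0.78, both with an adjusted p = 0.27. The soluble epoxide hydrolase Ephx2 was at -0.87 and the acyl-CoA synthetase Acsl1 at -1.31, with adjusted p = 0.35 and 0.37.

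The levels of several marker lists also differed between the genotypes, and their part in the levels of the peroxisomal genes was not tested. Of the 19 male-biased liver genes 9 were called lower by edgeR (0.178% of all tested genes), with sums of 6636 to 11003 CPM in Aqp5+/+ libraries, against 1266 to 2503 CPM in Aqp5-/- libraries. Of the 21 female-biased genes tested 10 were called higher (0.154% of all tested genes), with sums of 101 to 136 CPM in Aqp5+/+ libraries, against 1864 to 5349 CPM in Aqp5-/- libraries. The 13 markers of Kupffer cells and macrophages summed to 398 to 691 CPM against 863 to 1836 CPM, the 12 of neutrophils to 4.81 to 24.6 CPM against 31.2 to 121 CPM, and the 10 of pericentral hepatocytes to 10716 to 12092 CPM against 2818 to 9834 CPM, in the same order of genotypes. Of these 3 lists edgeR called 1 neutrophil gene higher (0.154% of all tested genes) and 0 others. At an unadjusted p under 0.05, 11 of 12 tested macrophage markers and 5 of 8 tested neutrophil markers were higher, and 0 of 10 pericentral markers passed in either direction. Over all tested genes, 4.30% were higher and 4.48% lower at that p. All 10 pericentral markers were below 0 (49.0% of all tested genes), with a median log2 fold change of -0.80. Of these, 3 were lower without overlap of the genotypes (7.80% of all tested genes). Sums overlapped between genotypes for markers of periportal hepatocytes, sinusoidal endothelial cells, stellate cells and cholangiocytes and for proliferation genes. The median log2 fold changes were 0.06, -0.44, 0.31, 2.13 and 0.45 in this order, for 9, 8, 8, 6 and 12 tested genes. At an unadjusted p under 0.05 by edgeR, 0, 0, 1, 2 and 0 were higher (4.30% of all tested genes) and 1, 2, 1, 0 and 0 lower (4.48%). All 12 proliferation genes were above 0, where 49.0% of all tested genes were below 0. The 10 lymphocyte markers summed to 15.5 to 49.4 CPM in Aqp5+/+ libraries, against 4.52 to 17.9 CPM in Aqp5-/- libraries, which also overlapped. No gene of these lists was at 0 in all 6 libraries. The 24 target genes of PPARα in other compartments overlapped in their sums and had a median log2 fold change of -0.03. At an unadjusted p under 0.05 by edgeR, 5 were higher (4.30% of all tested genes) and 1 lower (4.48%), and 0 were called. DESeq2 called 1 lower (1.02% of all tested genes), and the exact test and limma called 0.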

How the data were processed

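Mouse liver RNA at 72 h after 70% PHx, in 3 libraries for each genotype, was sequenced after removal of ribosomal RNA. The authors made raw counts per gene with HTSeq, after cutadapt 1.9.3 and HISAT2 2.0.4 on mm10 per the submitters' processing notes, and these counts were used as deposited. The strand setting of the counting is not given in the sources used here, and the kits in the labels and the methods differ. A further 6 columns of per-sample normalized values were not used.

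Genes were kept by filterByExpr of edgeR 4.0.16 (R 4.3.3) (default minimums of 10 counts and of 15 in total), scaled by TMM and compared by the 2-sided quasi-likelihood test with robust estimation and no covariate, with Benjamini-Hochberg adjustment over 12353 genes. The SE of a fold change was calculated from the fitted means and dispersions of this fit, and the 95% interval from that SE and the t distribution. DESeq2 1.42.0, the exact test, limma 3.58.1, other scalings and filters, a replicate block and leaving out libraries were alternatives. Exons came from GENCODE vM21, which held 16666 of 16858 genes, and promoters from RefSeq.

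The member genes, the gene lists and the tests were chosen with earlier results of these data known. Values are given in full for members with an unadjusted p under 0.05, members whose genotypes do not overlap and the most abundant member per kb of each role. Of the wider list, the 6 with the smallest p are named. Genes in the text outside these rules were named after their values were seen.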

Additional observations from a re-analysis of the deposited data

How the results depend on the processing

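The count of genes called between genotypes was 41 with edgeR's quasi-likelihood test, 240 with DESeq2, 222 with the exact test, between 4 and 45 when 1 library was left out, and 101 without Aqp5+/+ replicate 2 and Aqp5-/- replicate 3, an alternative chosen after seeing the data. Abcd2 kept its direction in every alternative run, with log2 fold changes between 2.05 and 2.42 when 1 library was left out, and it lost its call without Aqp5+/+ replicate 1 or 3 or Aqp5-/- replicate 1 or 2, so that 0 to 1 members were called higher. Members called lower numbered 0 with edgeR and 1 (Scp2) with DESeq2 and with the exact test. Of all tested genes, 0.178%, 1.02% and 0.915% were called lower, in this order. With library totals the median of the enzymes was -0.19, the log2 fold change of Gnpat went to 0.10 and that of Pex5 to 0.08, while the median of all tested genes went from 0.01 to 0.17. When 1 library was left out, the median of the Pex assembly factors lay between -0.29 and 0.03, that of the enzymes between -0.53 and -0.26, Gnpat between -0.34 and 0.09, Pex19 between -0.10 and 0.32, Pex5 between -0.21 and 0.16 and Pxmp4 between -0.89 and 0.02. Without Aqp5+/+ replicate 2 and Aqp5-/- replicate 3, the median of the enzymes was -0.23, Pex19 was at -0.25 and Pxmp4 at 0.17. The cause of these shifts was not tested.

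The libraries were not treated as paired, since no label ties the replicate numbers and not every same-numbered pair correlated above 0.1. Deviations from the group means correlated at -0.049, 0.262 and 0.184 for numbers 1, 2 and 3, and between -0.274 and 0.071 for libraries of different numbers, so that numbers 2 and 3 correlated best with their own number and number 1 did not. With the replicate block, 39 genes were called, and Abcd2 had an adjusted p of 0.040. The comparison on the deposited normalized values was not run, because its columns repeat the names of the count columns. Low counts limit Pex16 and Pex10, and a biological coefficient of variation of 0.371 with 3 libraries per genotype limits all comparisons.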
